A study of Drosophila melanogaster with 9 samples.

Results

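The normoxic baseline transcriptome of the whole adult fly was described from 3 of the 9 arrays of the series, those labelled NC. NC flies were adult Canton-S (CS), a wild-type laboratory strain of Drosophila melanogaster, 5 to 6 days old, males and females together, kept for 2.5 hours in normoxia (21% O2) in the same room as the flies of the other arms. The labels give 25 males and females and do not give the sex ratio, so each array carried RNA of all organs of both sexes. The other 6 arrays, of constant and intermittent hypoxia, were not used. Total RNA was hybridized to the GeneChip Drosophila Genome 2.0 Array of Affymetrix. A probe set on it is a group of short probes for 1 transcript or a few related ones. The array holds 18952 probe sets, and the 18769 that are not Affymetrix controls were ranked by their mean signal over the 3 arrays. Of these, 13646 are annotated with 1 gene symbol, 402 with several and 4721 with none. The single-symbol probe sets cover 11981 genes, each represented by its brightest probe set. The place of a gene is given as a percentile among these 11981 genes, where 0 is the dimmest and 100 the brightest.

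A whole-fly extract mixes the RNA of many organs. Females of this age make yolk proteins in the fat body and ovary and build eggshells in the follicle cells, while males make sperm and seminal fluid proteins. Both sexes carry flight muscle, a digestive midgut, the fat body, which combines roles of liver and adipose tissue, and a nervous system whose sensory neurons are few in number. In such an extract, few cells of a type and little RNA per cell cannot be told apart.

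Signals are linear intensities. Probe sets bind their targets with different strength, so the order below is an order of probe set signals and not of transcript numbers. Among the 1094 genes with more than 1 single-symbol probe set, the brightest exceeded the dimmest by a median of 4.13-fold, and in 325 genes by more than 10-fold. Values of a gene are given in the order NC1, NC2, NC3, and spread is the standard deviation (SD) over these 3 arrays. With 1 condition there is no comparison of groups and no test, and nothing in the labels says whether the 3 samples came from separate cultures, so the spread may be partly technical.

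The 3 arrays gave a similar order. Pearson correlations of log2(signal + 16) over the 18769 probe sets were 0.965 for NC1 with NC2, 0.965 for NC1 with NC3 and 0.975 for NC2 with NC3. NC1 stood somewhat apart: 98 genes with a mean above the median of all probe sets differed more than 2-fold between NC1 and NC2, 114 between NC1 and NC3, and 12 between NC2 and NC3. The array medians were 675, 771 and 713, and 22.1% to 23.8% of probe sets had a signal under 100. The 12 control probe sets for genes of the bacterium Bacillus subtilis, which match no fly gene, lay between 1.2 and 123 (median 25.5). On all 3 arrays, 10108 genes (84.4%), each at its brightest probe set, exceeded the highest of these bacterial control signals. At or under it on all 3 lay 833 genes (6.95%). Of the 18769 probe sets, 12580 (67.0%) exceeded that signal on all 3 arrays, and 3430 (18.3%) lay at or under it on all 3.

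Signal was concentrated in few probe sets. The brightest 100 held 13.3% of the summed mean signal, and between 12.6% and 13.7% on single arrays, when each array was ranked by itself. The brightest 1000 held 50.1%, and the dimmer 50% of all probe sets held 2.63%. The brightest 100 all had a mean of at least 72637, and 57 of them carried 1 gene symbol, 2 several and 41 none.

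The brightest transcripts of the normoxic fly belonged to protein synthesis, egg production, digestion and energy supply. Of the 30 genes with the highest mean signal, 14 encode cytoplasmic ribosomal proteins, 3 yolk proteins, 3 midgut proteases, 2 eggshell proteins and 2 subunits of oxidative phosphorylation. RpL41, a very small protein of the large ribosomal subunit, ranked first with signals of 119693, 130750 and 130280 (126908 ± 6252, SD, n = 3). Vm34Ca, a protein of the vitelline membrane that lines the eggshell, ranked second with 99875, 128482 and 133500, NC1 being the lowest. The ribosomal stalk proteins RpLP2 and RpLP1, the yolk protein Yp1 and the trypsin alphaTry followed. Cyp4g1, the cytochrome P450 that completes hydrocarbon synthesis in the oenocytes, was seventh, with 91950, 110252 and 105973. NC1 was the lowest of the 3 arrays for 28 of these 30 genes, against 34.2% of all genes.

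Others of the 30 were of mixed kinds. Hsc70-4, the main constitutive chaperone of the Hsp70 family, gave 88421, 102831 and 103232. The mitochondrial ADP/ATP carrier sesB gave 86967, 100858 and 104284, and ATPsynbeta, the catalytic subunit of ATP synthase, 68021, 91862 and 97948. Scp1, a calcium-binding protein, and CG2233, to which no role is assigned here, had ranks 21 and 24. A single gene of the germ line, dhd, which encodes a thioredoxin of the egg, was among the 30 at 86023, 82865 and 92184.

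**Figure D1:**
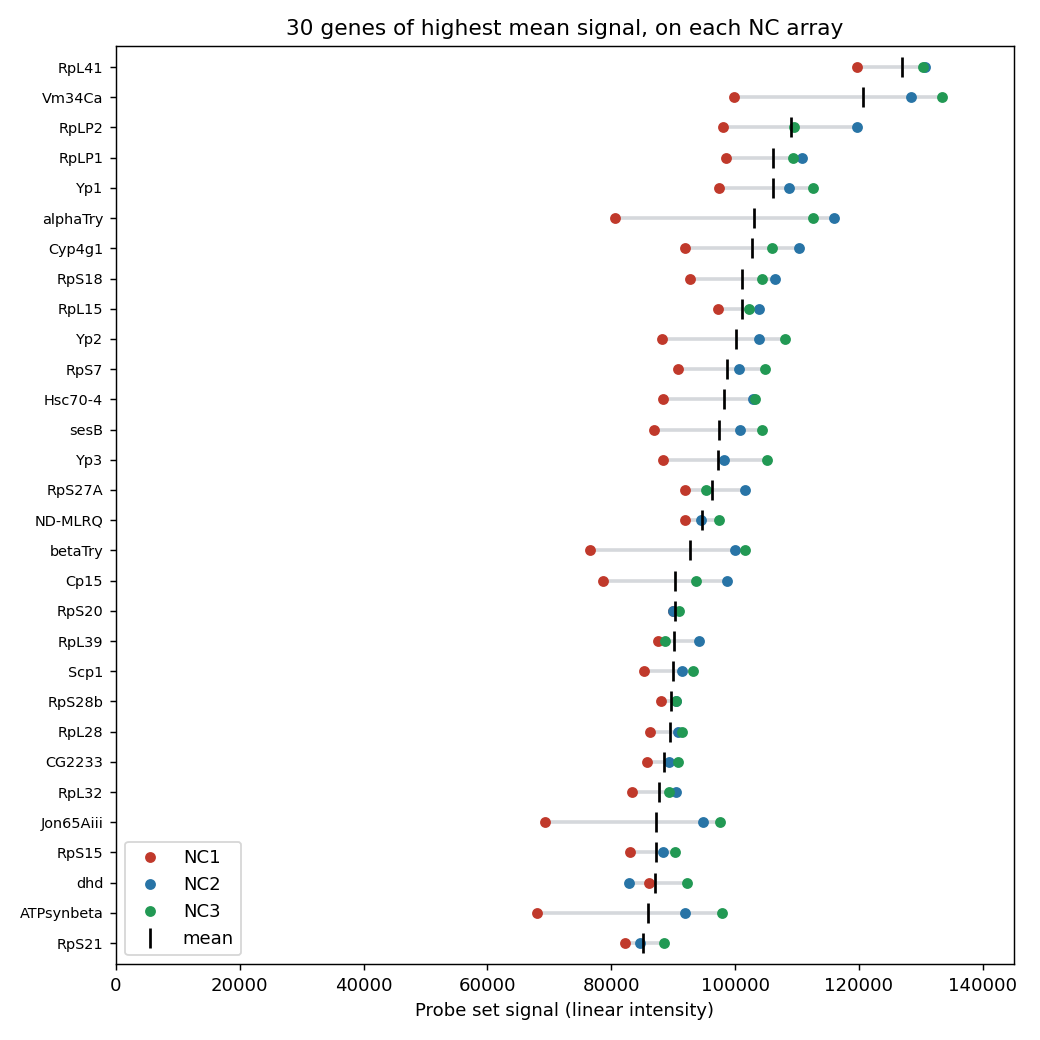
Signal of the 30 genes with the highest mean on each NC array (x axis: linear probe set intensity from 0; coloured points: NC1, NC2 and NC3; black bar: mean; grey line: range). RpL41 is at the top with a mean of 126908. NC1 is the lowest of the 3 points for 28 of the 30 genes, against 34.2% of all genes. It lies well apart from the others for Vm34Ca, alphaTry, betaTry, Jon65Aiii and ATPsynbeta, for example.

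To describe the rest, 57 gene lists with at least 3 measured members were placed in the ranking, 17 of tissue markers and 40 of gene families. By construction the top 10% and the bottom 25% of the ranking hold those shares of all genes, and counts of members there are read against them. The median member lay in the top 25% of genes for 21 lists and in the bottom 25% for 12. The brightest lists were those of yolk, ribosomes, eggshell, glycolysis, translation factors and oxidative phosphorylation, and the dimmest were chemosensory receptors and genes of larval life.

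**Figure D2:**
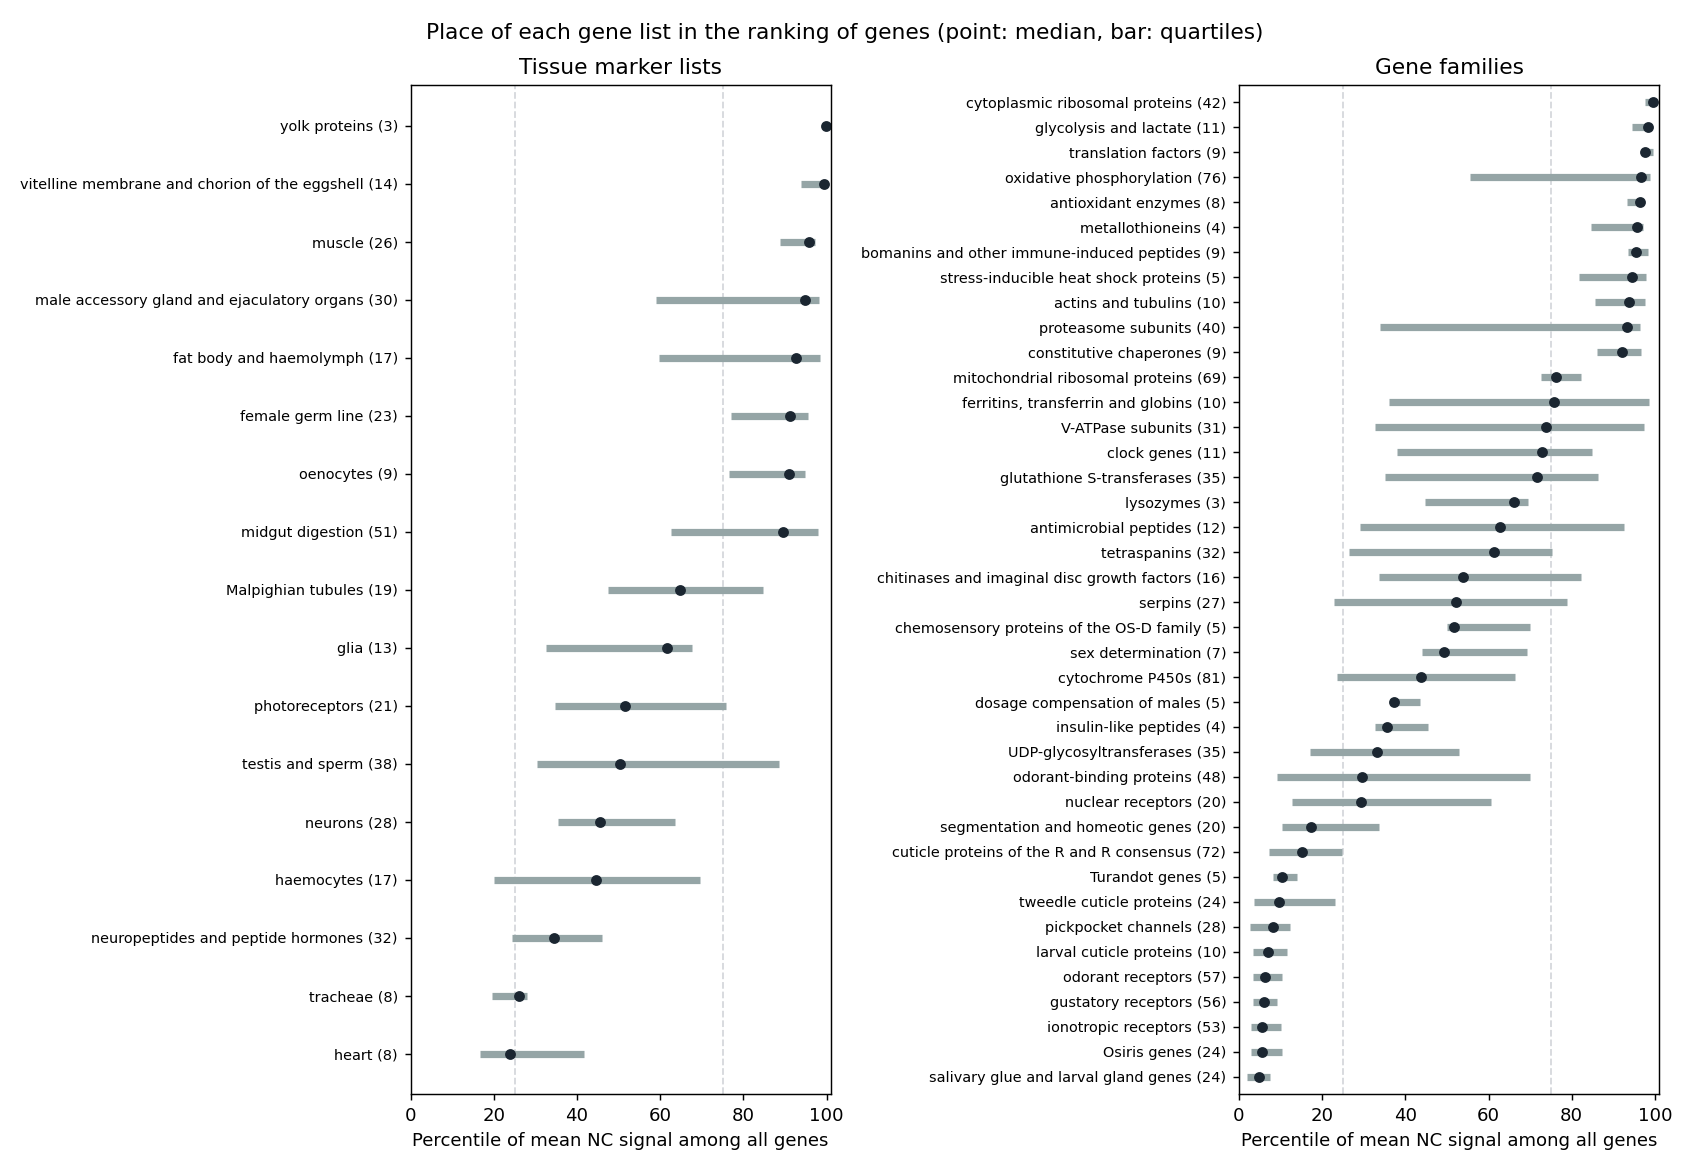
Place of 57 gene lists in the ranking of 11981 genes (x axis: percentile of mean NC signal; points: list medians; bars: lower to upper quartile; number of measured genes in parentheses; dashed lines at percentiles 25 and 75). Tissue markers run from yolk proteins at 99.9 to heart at 24.0, and families from cytoplasmic ribosomal proteins at 99.6 to salivary glue and larval gland genes at 4.81.

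Cytoplasmic ribosomal proteins formed the brightest large family. Of 94 listed genes 42 had a single-symbol probe set, and the other 52 were not analysed here. Their median percentile was 99.6, and 34 of the 42 lay in the top 10%. Their median SD was 0.08 on the log2 scale, against 0.20 over all genes and 0.12 in the brightest 10% of probe sets. RpS20 gave 90032, 89897 and 90876, a coefficient of variation of 0.588%, the smallest of the top 30. The lowest members were RpS28-like (579, 449 and 427) and RpS10a (277, 551 and 410). RpS28b, a paralog of RpS28-like, was bright at 88045, 90535 and 90449. Signals for ribosomal proteins are open to sharing between near-identical copies, which the probe sets cannot separate.

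Translation factors lay at a median percentile of 97.5, with all 9 measured members in the top 10%. eEF1gamma, a subunit of the elongation factor complex, gave 77284, 84568 and 80042, and eEF5, the hypusine-carrying elongation factor, 74720, 78240 and 77423. Mitochondrial ribosomal proteins, which serve the separate ribosome of the mitochondrion, lay lower and close together. Their median was the 76.3rd percentile with quartiles at 72.5 and 82.1, and all 69 measured members exceeded the bacterial controls on every array. mRpS5 was the brightest, at 18789, 16562 and 17309.

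Energy metabolism was bright as a whole. The 76 measured genes of oxidative phosphorylation had a median percentile of 96.5, with 54 in the top 10%. ND-MLRQ, a small subunit of the respiratory chain, gave 91972, 94468 and 97367. blw, the alpha subunit of ATP synthase, gave 66651, 95110 and 92708, NC1 being well below the other arrays. Glycolysis lay at 98.3, with 9 of 11 measured enzymes in the top 10%. Gapdh1, glyceraldehyde-3-phosphate dehydrogenase, gave 54891, 69038 and 71896, and enolase (Eno) 50053, 60668 and 60071. The lowest member of the glycolysis list was Pglym78, a phosphoglycerate mutase, at the 71.8th percentile.

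Within such families a dim group of paralogs stood beside a bright core. Several of these paralogs are known as testis forms of the subunit. The split by the ending of the gene symbol that follows was chosen after the values were seen. In the proteasome, the protease that degrades ubiquitin-tagged proteins, the 14 members whose symbol ends in T or R, with or without a digit, had a median percentile of 28.3 and lay between 16.7 and 42.3. The other 26 members had a median of 95.8, and all 26 lay in the top 10%. Rpn5, a subunit of the regulatory lid, gave 28332, 27823 and 26973, whereas Prosalpha3T gave 242, 238 and 198. In oxidative phosphorylation, the 18 members with a symbol that adds L, with or without a digit, to the name of a subunit had a median of 41.5, against 97.6 for the other 58, of which 53 were in the top 10%. ND-MNLL, where the final L belongs to the subunit's own name, was counted with the 58. ND-51L1 gave 187, 117 and 384. The highest of the 18 was COX7AL2, read by a probe set that can share sequence with related transcripts, at the 98.8th percentile.

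The V-ATPase, the proton pump of endosomes and of many epithelia, covered a similar range. Its 31 measured subunits had quartiles at 32.8 and 97.4. Vha16-1, which forms the membrane ring, gave 48569, 52614 and 54310. Its paralog Vha16-4 gave 368, 296 and 357. Nevertheless all 31 exceeded the bacterial controls on the 3 arrays.

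**Figure D3:**
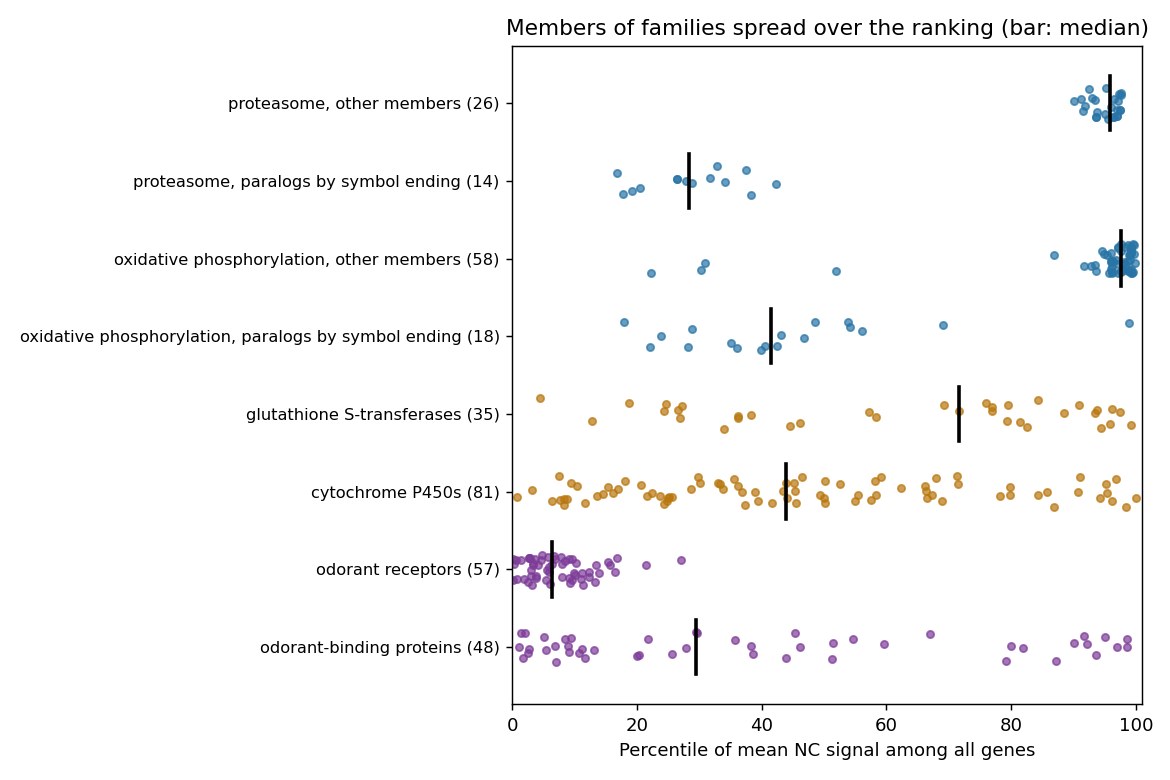
Percentile of mean NC signal of each measured member in 4 families and in the proteasome and oxidative phosphorylation, both split by symbol ending (points: genes, with random vertical offset; black bars: medians; number of genes in parentheses). Proteasome paralogs ending in T or R lie between 16.7 and 42.3 and the other members all in the top 10%, while odorant-binding proteins and P450s run over nearly the whole range.

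Transcripts of egg production were among the brightest of the fly. All 3 yolk proteins, which are secreted into the haemolymph and taken up by the oocyte, were among the brightest 14 genes. Yp1 gave 97410, 108644 and 112542, Yp2 88266, 103857 and 108110, and Yp3 88320, 98155 and 105097. The 14 measured eggshell genes had a median percentile of 99.3, and 11 were in the top 10%. All 7 chorion genes, encoding the outer eggshell layers, were in that share, with a median of 99.5. Cp15 gave 78698, 98641 and 93699, and Cp38 59029, 80126 and 81545. Vm26Aa, of the vitelline membrane, gave 54101, 89971 and 93964, and the lowest member, Vm26Ac, still gave 2184, 2756 and 4128.

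The eggshell genes also differed between arrays. For 13 of the 14 genes NC1 was the lowest array, against 34.2% of all genes. The median deviation of NC1 from the gene means was −0.39 on the log2 scale (−0.31 after quantile normalization). The other arrays had 0.18 on NC2 and 0.19 on NC3. Germ line genes ran the other way. The 23 measured genes of the female germ line had a median percentile of 91.2. Of them 19 were highest on NC1, against 44.6% of all genes, with a median deviation there of 0.12. CycB, the mitotic cyclin B, gave 52706, 49724 and 48280. osk, whose RNA is localized to the posterior pole of the oocyte, gave 40179, 36637 and 39056. BicC, an RNA-binding protein of the oocyte, gave 32001, 26557 and 26343. The lowest germ line member was vas, an RNA helicase of the germ plasm, at 469, 391 and 356.

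The male side of the extract was read from seminal fluid and sperm genes. The 30 measured genes of the accessory gland and ejaculatory organs, of 50 listed, had a median percentile of 94.9, and all exceeded the bacterial controls on the 3 arrays. The brightest of them were EbpII and Ebp, 2 of the 3 ejaculatory bulb proteins, which form the mating plug. EbpII gave 81873, 92801 and 77728, and Ebp 72711, 72456 and 63797. Among accessory gland products, Mst57Da gave 55185, 68055 and 59269, and Acp98AB 48603, 60564 and 55639. The list had a median SD of 0.13, near the 0.12 of the brightest 10% of probe sets. Its lowest members were intr (564, 592 and 647), which acts in sperm storage, and Sfp65A (543, 504 and 457), a seminal fluid protein.

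Testis and sperm genes spread widely around the middle of the ranking. The 38 measured genes had a median percentile of 50.4 with quartiles at 30.3 and 88.6. Their 11 Mst genes, transcribed in male germ cells, had a median of 89.2. ocn, a testis protein, gave 22221, 22121 and 18199. Mst84Dc, of the sperm tail, gave 17930, 15839 and 13019, and Mst77F, a chromatin protein of condensed sperm, 15550, 10100 and 9713. aly, a regulator of transcription in spermatocytes, stood at 126, 23.4 and 20.4, so it exceeded the highest bacterial control signal only on NC1. NC3 had the lowest median deviation for this list (−0.15), and for the accessory gland list as well (−0.10). The proportion of males in each sample is not given, and its part in these deviations was not tested.

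Digestive enzymes marked the midgut. The 51 measured genes had a median percentile of 89.6, and 23 were in the top 10%. alphaTry and betaTry, trypsins of the gut lumen, gave 80578, 116038 and 112579, and 76505, 99998 and 101568. Jon65Aiii, a serine protease of the Jonah family, gave 69296, 94857 and 97532, and Jon65Aiv 59227, 93951 and 96641. In all 4 of these genes NC1 lay below both other arrays, which were close to each other. The 13 Jonah proteases had a median percentile of 98.4, the 9 trypsins 89.6 and the 10 maltases, which split disaccharides, 90.8. Low members were LysS, a lysozyme of the gut (195, 428 and 430), and Lip1, a lipase (121, 250 and 95.3). Over the list, 36 of 51 genes were lowest on NC1, against 34.2% of all genes. The median deviation there was −0.25 (−0.20 after quantile normalization). In 13 of the 51, Npc2e and Amyrel among them, NC1 was the highest array, against 44.6% of all genes.

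The Malpighian tubules, the renal organ, lay lower, at a median percentile of 64.8 over 19 genes. Fst, which takes its name Frost from induction by cold, gave 17469, 21750 and 18593. Alp4, an alkaline phosphatase of the tubules, gave 7561, 10307 and 8936. The receptor for leucokinin, Lkr, which controls tubule secretion, was the dimmest at 298, 175 and 203. All 19 genes exceeded the bacterial controls on the 3 arrays.

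Muscle genes were bright in nearly all members. The 26 measured genes had a median percentile of 95.8, 19 were in the top 10% and none in the bottom 25%. Mf, myofilin of the thick filament, gave 75635, 72311 and 87426. Argk1, arginine kinase, which buffers ATP, gave 50162, 64763 and 65540. Act79B, an actin of tubular muscle, gave 40962, 58156 and 56925, and Act88F, the actin of the flight muscle, 13325, 21963 and 25634. NC1 was the lowest array for 24 of the 26 genes, against 34.2% of all genes, with a median deviation of −0.33 (−0.29 after quantile normalization). Msp300, a giant protein of the nuclear envelope and sarcomere, gave 2047, 5192 and 5327. Its 6 probe sets differed widely, and the dimmest had a mean of 87.6.

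Fat body and oenocytes carry lipid metabolism. The fat body list had a median percentile of 92.8 over 17 genes. apolpp, the precursor of the haemolymph lipoprotein, gave 43892, 56507 and 54055. Pepck1, phosphoenolpyruvate carboxykinase of gluconeogenesis, gave 52013, 45699 and 52747, and FASN1, fatty acid synthase, 37341, 53612 and 46902. Fbp2 and Fbp1, fat body proteins of the larva, were the 2 members in the bottom 25%, at 296, 209 and 30.5, and at 37.1, 35.5 and 41.8. Lsp2, larval serum protein 2, was high instead, at 27597, 28183 and 32875. Among the 9 oenocyte genes Desat1, a desaturase of pheromone synthesis, gave 43619, 57028 and 45178. Desat2, a desaturase that only some strains of the species express, was the lowest at 79.7, 217 and 39.5.

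Iron and metal handling followed. The 10 genes on the list of ferritins, transferrins and globins spread widely. Their median percentile was 75.8 with quartiles at 36.0 and 98.5, and 4 were in the top 10%. The ferritin chains Fer1HCH and Fer2LCH, which store iron, gave 68080, 75696 and 75641, and 51946, 57855 and 59541. Fer3HCH, another ferritin chain, gave only 504, 586 and 549. Tsf1, a transferrin of the haemolymph, gave 27734, 38541 and 41676 with the brightest of its 3 probe sets, whereas the dimmest had a mean of 93.3. glob1, a haemoglobin of the tracheal system and fat body, gave 40322, 35179 and 31493, with NC1 the highest. MtnA, a metallothionein that binds copper, gave 76581, 92044 and 81375. MtnB, another member of the family, gave 1632, 2613 and 1527.

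Genes of defence were read in flies for which the labels name no infection. Bomanins are short peptides that the Toll pathway induces. With related immune-induced peptides they had a median percentile of 95.5 over 9 measured genes, of which 8 were in the top 10%. IM33 gave 55964, 66662 and 65117, and BomS2 50519, 56613 and 51694. The 12 measured antimicrobial peptides spread from one end of the ranking to the other. Drs, the antifungal drosomycin, gave 47028, 40237 and 44479. DptB, a diptericin against bacteria, gave 17590, 8427 and 7483, with NC1 the highest. Drsl6, a drosomycin-like gene, was at 15.3, 8 and 10.7 and so among the 10 dimmest genes of the fly.

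Stress genes were read through few members. Of 15 listed heat shock genes 5 were measured with a single symbol, and the other 10 were not analysed here. Hsp26 and Hsp27, small heat shock proteins with a known place in the ovary, gave 49431, 47049 and 53222, and 31201, 27487 and 27068. Hsp68, an inducible Hsp70 relative, gave 852, 1382 and 1085. The Turandot genes, humoral stress factors, were dim in 4 of 5 members, and TotC alone reached 4974, 6909 and 9534. Antioxidant enzymes lay high, at a median percentile of 96.4. Their median SD was 0.09, against 0.12 in the brightest 10% of probe sets. Cat, catalase, gave 20470, 24519 and 23908, and the thioredoxin Trx2 24330, 24408 and 27311.

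Nervous tissue gave a middling signal. The 28 measured neuronal genes had a median percentile of 45.5, and none was in the top 10%. Gad1, which makes the transmitter GABA, gave 7032, 7512 and 8308. Snap25, of the synaptic vesicle fusion machinery, gave 4846, 6006 and 5748, and shi, the dynamin of vesicle recycling, 3177, 4902 and 4667. At the other end, ple, tyrosine hydroxylase of dopamine synthesis, gave 38.2, 124 and 21.8, and DAT, the dopamine transporter, 256, 226 and 204. NC1 was the lowest array for 23 of the 28, against 34.2% of all genes, with a median deviation of −0.32 (−0.34 after quantile normalization).

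Glial genes lay at 61.5 over 13 members. Tret1-1, a trehalose transporter that also serves other tissues, gave 16920, 24945 and 22712, and Gs2, glutamine synthetase, 15147, 22242 and 23989. The transcription factor gcm, which sets glial fate in the embryo, was near the bacterial controls at 30.2, 162 and 59.6. Photoreceptor genes had a median percentile of 51.5 over 21 measured of 33 listed. The arrestins Arr2 and Arr1, which terminate the light response, gave 28889, 41688 and 39996, and 22133, 33800 and 31026. The corneal lens protein retinin gave 14011, 16544 and 19823, and Rh7, an opsin, 243, 234 and 188. Rh7 was the only opsin of the list measured with a single symbol. The other listed opsins, ninaE, Rh2, Rh3, Rh4, Rh5 and Rh6, were not analysed here, so the list median does not include them.

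Among neuropeptides and peptide hormones, 2 genes stood far above the others. Nplp2 gave 65499, 86455 and 85519, and Nplp3 19862, 37981 and 45171. Both are annotated as neuropeptide-like precursors. The remaining 30 lay under the top 10%, and the list median was at 34.4. Ilp8, an insulin-like peptide expressed in the ovary of adults, gave 4461, 3719 and 3509, and CCHa2, a peptide of the gut and fat body, 3509, 4187 and 3570. Eh, eclosion hormone (17.3, 44.3 and 38.7), and amn (9.3, 7.5 and 50.7) were at the level of the bacterial controls.

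Chemosensory receptors were at the bottom. Odorant receptors had a median percentile of 6.29, and 56 of 57 measured genes were in the bottom 25%. All 56 gustatory receptors were in it, with a median of 5.99, and 51 of 53 ionotropic receptors, with a median of 5.65. Of these 166 genes together, 18 exceeded the bacterial controls on all 3 arrays. Or43b gave 297, 512 and 549, and Orco, the co-receptor that all odorant receptors need, 293, 244 and 373. Gr22a was the brightest gustatory receptor at 168, 351 and 233. Ir76a was the brightest ionotropic receptor at 985, 924 and 924. At these signals a level could not be told from background for most receptors, which is not the same as absence.

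Pickpocket channels, sodium channels of sensory neurons, were dim in 26 of 28 members. The other 2 were ppk29 (563, 557 and 608) and rpk (9600, 6342 and 5804). The gene rpk, ripped pocket, is known for expression in the ovary and early embryo. Odorant-binding proteins, which are secreted into the fluid around sensory hairs and also by other organs, spread over the whole range. The 48 measured genes had a median of 29.5 with quartiles at 9.11 and 70.0. Obp56g gave 40410, 40067 and 36157, Obp99c 31578, 38529 and 40834, and Obp44a 24124, 23012 and 22584. Obp47b, in contrast, gave 38.4, 20.4 and 14.2.

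Genes of larval life and of cuticle deposition were likewise at the bottom. All 24 measured salivary glue and larval gland genes were in the bottom 25%, with a median percentile of 4.81, and 16 lay at or under the bacterial controls on all 3 arrays. The glue protein Sgs5 gave 187, 91.6 and 31. All 24 Osiris genes, a cluster active when cuticle forms, were also in the bottom 25%, with a median of 5.55. All 10 measured genes of the larval cuticle list were there too, and 19 of 24 tweedle genes. The larval cuticle list also holds Edg78E, Edg84A and Edg91, and the glue list ImpE1, ImpE2, ImpE3 and Fbp1. Not every member is thus a gene of larval cuticle or of a larval gland. Cuticle proteins with the Rebers and Riddiford consensus had a median of 15.2, and 54 of 72 were in the bottom 25%. Cpr65Au (24970, 27082 and 25687) and Cpr49Ae (10787, 14530 and 13979) were the 2 in the top 10%. The low values of these lists stand beside the adult stage named in the labels.

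Detoxification families spread over the ranking. The 81 measured cytochrome P450s had a median of 43.9, with 9 in the top 10% and 24 in the bottom 25%. After Cyp4g1 came Cyp6d5 (36089, 34149 and 35029), Cyp28d1 (19002, 21408 and 24074) and Cyp6g1 (21189, 18318 and 19075), the last known for insecticide resistance. Cyp313a2 was at 39, 11.5 and 12.6. Glutathione S-transferases lay higher, at a median of 71.6, led by GstD1 with 54729, 56532 and 60749. UDP-glycosyltransferases lay lower, at 33.2, and none of the 35 was in the top 10%.

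Developmental regulators were mostly dim. Segmentation and homeotic genes, which pattern the embryo, had a median percentile of 17.4, but 3 were in the top 10%. These were hry, the repressor hairy (15122, 18060 and 15481), and cad and bcd, whose RNAs mothers load into eggs (14626, 14151 and 13454, and 12685, 8361 and 9733). The pair-rule gene ftz was at 16.6, 35.5 and 12. Nuclear receptors had a median of 29.2, with ftz-f1 the brightest at 12013, 10068 and 10445. Clock genes lay at 72.9. The kinase dco gave 14494, 14948 and 14299, cwo, a transcriptional repressor, 10165, 11553 and 10379, and tim, the partner of period, 8668, 8635 and 9503.

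Sex determination genes were in the middle, at a median of 49.3 over 7 genes, with tra2 (8084, 6805 and 6976) the brightest. The male dosage compensation genes lay at 37.3, and msl-2, translated only in males, gave 479, 641 and 379. Heart and tracheal markers were the dimmest tissue lists, at 24.0 and 26.2 over 8 genes each. The heart transcription factor Hand gave 1069, 1055 and 1139, and btl, the FGF receptor of tracheal cells, 90.7, 53.2 and 75.8. Ork1, the brightest member of the heart list, was at the 81.8th percentile. Haemocyte markers lay at 44.5, with srp, a GATA factor of blood cells and fat body, at 3607, 6316 and 4995. Members of the haemocyte list ran from percentile 0.99 to 99.5.

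The dimmest 10 genes had means between 7.17 and 11.3. They were tap, CG13081, CG33703, flz, CG15731, CG34260, Grl36b, CG13699, Tehao and Drsl6. tap encodes a transcription factor of the developing nervous system, and its signals were 7.2, 9.8 and 4.5. All 10 lay far under the highest bacterial control, so their order has no meaning.

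Spread between the arrays depended on signal. The median SD of log2(signal + 16) was 0.25 over all probe sets, and 4531 probe sets (24.1%) differed more than 2-fold between their highest and lowest array on the signal + 16 scale. In the ranking cut into 10 equal classes, the median SD was 0.39 in the dimmest, where the added 16 compresses differences, 0.77 and 0.74 in the next 2, and 0.12 in the brightest. The share beyond 2-fold was 75.3% in the second dimmest class and 1.86% in the brightest. A low percentile therefore rested on a less repeatable signal than a high one.

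**Figure D4:**
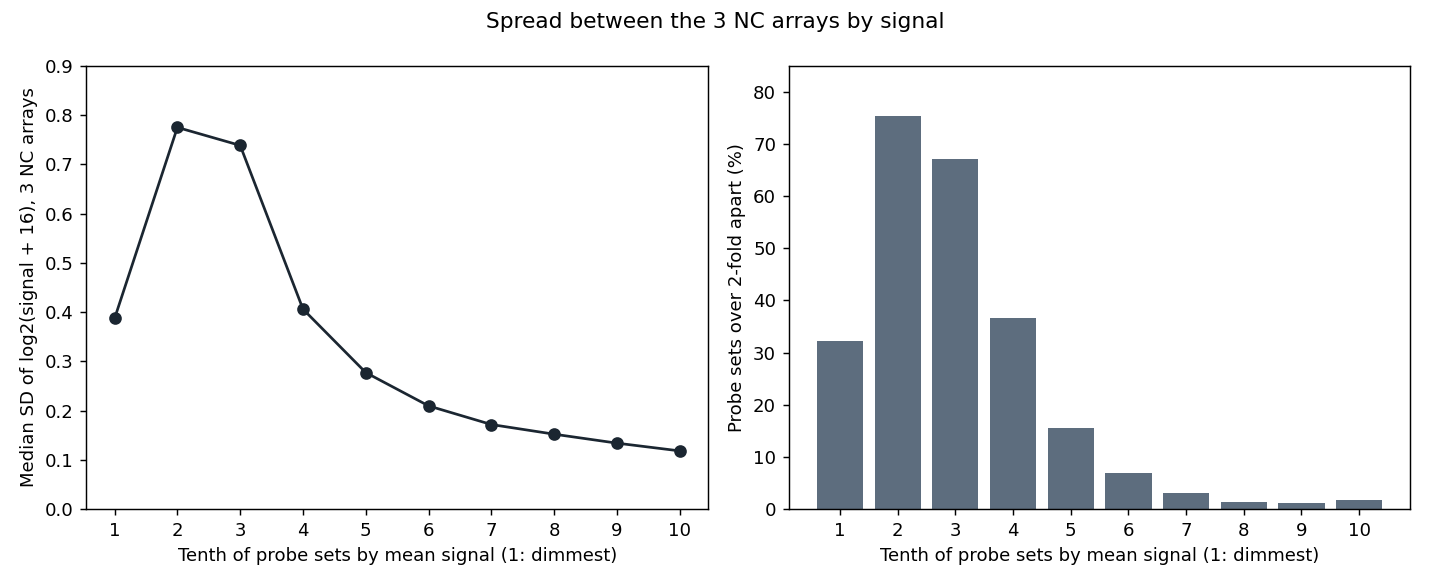
Spread between the 3 NC arrays in 10 classes of the ranking of 18769 probe sets (left: median SD of log2(signal + 16); right: percent of probe sets whose highest and lowest array differ more than 2-fold on the signal + 16 scale). The SD is 0.77 in the second dimmest class and 0.12 in the brightest.

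Among the 7913 genes with a mean above the median of all probe sets, 156 differed more than 2-fold. NC1 was the lowest array for 119 of the 156 and the highest for 32. In the 15 most variable of these genes NC1 was the lowest in 9 and the highest in 6. Npc2e, a sterol-binding protein of the Niemann-Pick C2 family on the midgut list, gave 17052, 7154 and 3208. Amyrel, related to amylase and also on the midgut list, gave 3308, 1124 and 675, and the lipase Lip3 1526, 505 and 456. The largest SD was that of CG14957, with 2448, 649 and 311. On the low side, CG8299, a predicted serine protease, gave 917, 3099 and 3338, and the germ line zinc finger gene mamo 390, 1361 and 1621. raptor, a subunit of the TORC1 kinase complex, gave 636, 2252 and 2351.

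The deviation of NC1 was shared within lists. Over all genes NC1 was the lowest array in 34.2%, but in 24 of 26 muscle, 23 of 28 neuronal, 13 of 14 eggshell and 36 of 51 midgut genes. NC1 was the highest in 44.6% of all genes, but in 49 of 69 mitochondrial ribosomal proteins and 19 of 23 germ line genes. Of the 57 lists, 9 had a median deviation below −0.2 on NC1, 1 on NC2 and 1 on NC3. For cytoplasmic ribosomal proteins the deviation of NC1 was −0.05 as deposited and 0.05 after quantile normalization, so its direction depended on the scaling.

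Ratios of 3′ to 5′ signal on control genes, which rise when labelled fragments cover less of the transcript, were highest on NC1 for all 5 controls. These read only actin, GAPDH and eIF-4a. For the Act5C control the ratio was 6.62 on NC1, against 3.95 on NC2 and 4.68 on NC3. For the eIF-4a control it was 3.52, 3.21 and 2.83, and for the GAPDH r2 control 14.5, 11.6 and 11.9. The other actin control had 1.94, 1.43 and 1.23. For the other GAPDH control the arrays lay close together, at 1.66, 1.59 and 1.52. Among genes above the median, the longest 25% by genomic span (5355 bp or more) had a median difference of −0.05 (log2) between NC1 and the mean of NC2 and NC3. The 3 shorter classes of equal size had 0.07, 0.10 and 0.08, shortest first. By list, the median span and median difference were 31754 bp and −0.38 for neurons, 7055 bp and −0.50 for muscle, and 6160 bp and −0.44 for photoreceptors. They were 1017 bp and −0.40 for midgut, 784 bp and −0.58 for eggshell, and 663 bp and 0.00 for the accessory gland. Over the 7887 genes above the median with a known span, the Spearman rank correlation of span with this difference was −0.15. With NC2 minus NC3 it was −0.02. Span is genomic and includes introns, so it is not the length of the transcript. The part of RNA quality and gene length in the deviations of NC1 was not tested. Leaving NC1 out placed the list medians of eggshell at 99.4, muscle at 96.0, neurons at 46.8 and midgut at 87.2, against 99.3, 95.8, 45.5 and 89.6 with all 3 arrays.

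**Figure D5:**
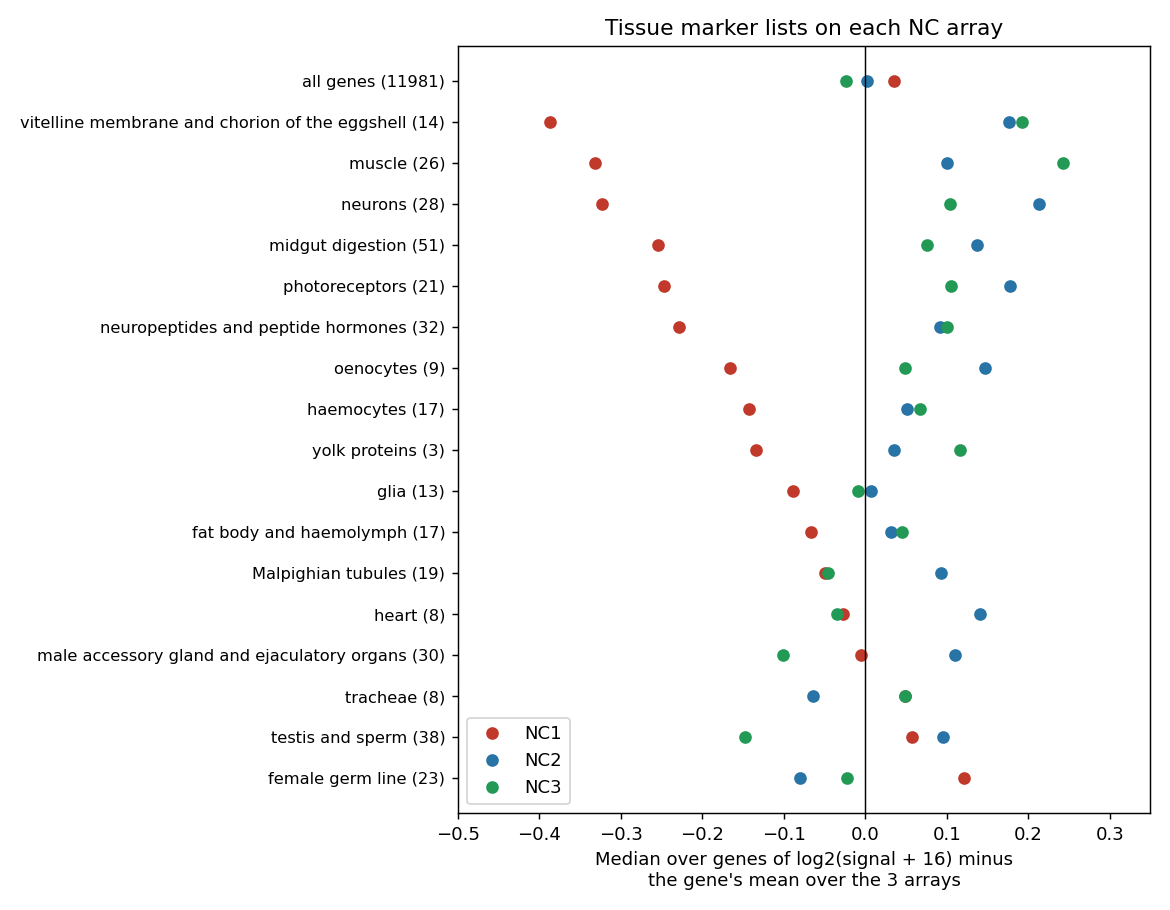
Median over the genes of each tissue list of log2(signal + 16) minus the gene's mean over the 3 arrays (x axis; coloured points: NC1, NC2 and NC3; number of genes in parentheses; vertical line at 0). NC1 lies at −0.39 for eggshell, −0.33 for muscle and −0.32 for neurons and at 0.12 for the female germ line, with all genes close to 0. The points of NC1 and NC3 coincide for tracheae.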

How the data were processed

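Signals of 3 NC arrays were analysed. By the methods, raw scans were normalized by the authors with Bioconductor's affy package (options not given in the sources used here). Values deposited for each array are linear intensities, 1 per probe set, scaled so that the mean after removal of 2% of probe sets at either end is 2500. They carry no reads or depth, so precision rests on 3 arrays and is poorest near background.

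The 183 Affymetrix control probe sets were left out of the ranking. Symbols came from the platform annotation and were updated through RefSeq, where 13543 of the 13646 gene IDs of single-symbol probe sets matched. Probe sets with several symbols were counted only. Spread was computed on log2(signal + 16). Gene span, the genomic length of the gene, was taken from RefSeq for 7887 of 7913 genes. Python 3.11.15, pandas 2.3.3 and scipy 1.17.1 were used, and the ranking of lists was tested on simulated data.

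The genes named are the 30 brightest, up to 4 highest and 2 lowest members of each list, the 15 most variable above the median of all probe sets, and the 10 dimmest. COX7AL2, ND-MNLL, Lsp2 and the splits by symbol were chosen after values were seen. The lists were chosen with earlier results of these data known. Cyp1, a cyclophilin, and Dsor1, a kinase, were taken off the P450 and immune peptide lists, which had caught them by symbol, after values were seen. Alternatives were leaving out each array, quantile and median scaling, the median or log mean over arrays, all probe sets of a gene, a floor of 100 and other added constants. Lists of fewer than 3 measured genes, such as histones, were not summarised. The 6 hypoxia arrays were not used.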

Additional observations from a re-analysis of the deposited data

How the results depend on the processing

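Counts at the ends of the ranking moved less than the spread did. The number of probe sets more than 2-fold apart was 4531 with 3 arrays and between 2078 and 2848 with any pair, the lowest without NC1, and fewer arrays alone lower it. The median SD ranged from 0.146 (without NC1) to 0.23 when 1 array was left out. With mean signals of at least 100, the SD was 0.20 and 2072 probe sets were more than 2-fold apart. Over the alternatives run, 97 to 100 of the brightest 100 probe sets and 747 to 987 of the dimmest 1000 were kept, 20 or 21 lists had a median in the top 25% and 12 or 13 in the bottom 25%. The floor of 100, which removes dim genes from the ranking itself, moved 12 of 57 lists by more than 5 percentile points. The list most moved was antimicrobial peptides, at the 62.7th percentile of all genes and at 82.4 with the floor of 100. Lysozymes, with 3 measured genes, were at 66.0, at 72.2 without NC1 and at 57.1 without NC2. Photoreceptors went to 44.3 with the mean of all probe sets of a gene, against 51.5. No paired analysis was possible because only 1 group is described.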

Other observations

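Imaginal disc growth factors are secreted proteins related to chitinases. On the list that holds both, the 4 members in the top 10% of genes were growth factors. They were Idgf2, Idgf3, Idgf4 and Idgf6, while Idgf1 and Idgf5 lay under the top 10%. Idgf4 gave 18920, 19985 and 20942 on NC1, NC2 and NC3, and Idgf6 18794, 17345 and 19360. The lowest members were the chitinases Cht6 (96.5, 230 and 322) and Cht10 (93.3, 107 and 152). That list had a median percentile of 53.8 over 16 genes. Serpins, inhibitors of serine proteases, lay at a median of 52.2 over 27 genes. Spn77Bb was the brightest of them at 28278, 28338 and 20886, with NC3 the lowest.

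Cytoskeletal and chaperone genes combined general and organ-bound forms. betaTub56D, the general beta tubulin, gave 44443, 40661 and 42161, and alphaTub67C, the maternal alpha tubulin, 31469, 30936 and 31198. alphaTub84D was listed at 282, 251 and 468, and as its sequence is nearly that of a sister gene, this probe set may read only part of its transcripts. Hsc70-3, the chaperone of the endoplasmic reticulum, gave 32743, 32266 and 31837, and Hsc70-5, of the mitochondrion, 22823, 21163 and 19923. Tetraspanins, membrane proteins, lay at a median of 61.2 over 32 genes, with Tsp29Fb the brightest at 11827, 19562 and 17447. Lysozymes gave the largest list deviation of NC1, at a median of −0.71 on the log2 scale over only 3 measured genes. LysX, for example, gave 1753, 4935 and 2728.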
